A study of Homo sapiens with 6 samples.

Results

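MX1, XAF1 and GBP5 are 3 human genes that interferons switch on. They were followed in LX-2 cells, an established line of human hepatic stellate cells, which are the cells that deposit scar matrix in injured liver. They were chosen by name, with their levels after the treatments already known, and make up 3 of the 1699 genes that could be read from a row on the other strand and 3 of the 62754 gene rows in the tables. In this opposite-strand reading, a gene takes the counts of the non-coding rows whose exons overlap its exons, and no other gene's, by 50 bp or more on the other strand. All 3 genes have such a row, and all 3 were among the 1443 genes that passed the filter on low counts, GBP5 through its FEBJ libraries alone.

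The cells carry the label WT and were treated for 24 h. The treatments were FEBJ (a mixture extracted from Brucea javanica fruit), Cynaroside (a plant flavone glycoside) and the solvent DMSO. Total RNA was sequenced in 2 FEBJ, 2 Cynaroside and 2 DMSO libraries. Doses are not given in the labels. Nor do they say whether both libraries of a group were grown as separate cultures. The p-values thus reflect only the library-to-library spread, estimated in part over all genes, and that spread may be technical.

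Interferons bind receptors at the cell surface, and Janus kinases on those receptors activate STAT transcription factors. STAT complexes and interferon regulatory factors then act on interferon-stimulated response elements and gamma-activated sites in the promoters of target genes. MX1 encodes a dynamin-like GTPase that blocks the replication of several RNA viruses. XAF1 encodes a zinc-finger protein that binds the apoptosis inhibitor XIAP, and GBP5 encodes a guanylate-binding GTPase that acts against intracellular pathogens and favours inflammasome assembly.

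MX1 (ENSG00000157601) lies at chr21:41420304-41459214 on the plus strand of GRCh38, and its counted row was AP001610.1 (ENSG00000228318), an antisense gene. XAF1 (ENSG00000132530) lies at chr17:6755447-6775647 on the plus strand, and its row was PRAL (ENSG00000279296), a transcript of unsettled type in the annotation. GBP5 (ENSG00000154451) lies at chr1:89258950-89272804 on the minus strand, and its row was the antisense gene AC099063.1 (ENSG00000237568). The coding bases that each gene shares with its row are shown because reads from the shared exons could come from either strand's gene. The row of MX1 lies within the span of MX1, so its bases outside MX1 exons could also take reads from unspliced MX1 RNA. Each sequence is the gene's own strand in GRCh38, 5′ to 3′, and capitals mark the bases that lie opposite an exon of the counted row.
MX1 stretch A: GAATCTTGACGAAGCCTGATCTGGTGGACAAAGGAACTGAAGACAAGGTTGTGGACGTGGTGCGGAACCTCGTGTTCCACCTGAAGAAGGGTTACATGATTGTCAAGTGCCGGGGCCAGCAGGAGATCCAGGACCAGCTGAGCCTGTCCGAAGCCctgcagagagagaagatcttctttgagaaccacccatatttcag
MX1 stretch B: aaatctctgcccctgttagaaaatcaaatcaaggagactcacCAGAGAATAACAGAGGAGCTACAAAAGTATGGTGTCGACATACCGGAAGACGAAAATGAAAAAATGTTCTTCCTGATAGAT
XAF1 stretch A: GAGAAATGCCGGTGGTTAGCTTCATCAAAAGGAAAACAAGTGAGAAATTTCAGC
GBP5 stretch A: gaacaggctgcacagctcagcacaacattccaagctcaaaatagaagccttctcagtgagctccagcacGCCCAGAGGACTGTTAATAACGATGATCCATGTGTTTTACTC

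The MX1 stretches lie at chr21:41441716-41441914 and chr21:41445448-41445570, the XAF1 stretch at chr17:6773113-6773166 and the GBP5 stretch at chr1:89260707-89260817. AP001610.1 has 1116 exonic bases, of which 236 lie opposite MX1 exons, all of them coding. That is 21.1% of the row, and the other 880 bases lie outside MX1 exons. PRAL has 3286 exonic bases, and 2535 of them, or 77.1%, lie opposite XAF1 exons, 54 of these in coding sequence. All 324 exonic bases of AC099063.1 lie opposite GBP5 exons, 42 of them coding. Over the 1828 rows of the opposite-strand reading the median overlap was 33.7% of a row, and 35.0% of rows had a share at or under that of MX1. Reads in the part of a row outside the gene's exons cannot be told apart from reads inside it. Of all runs of 50 bases in the exons of a row, none of 1067 in AP001610.1 and none of 275 in AC099063.1 occurred in another gene, and 11 of 3237 in PRAL did.

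**Figure D1:**
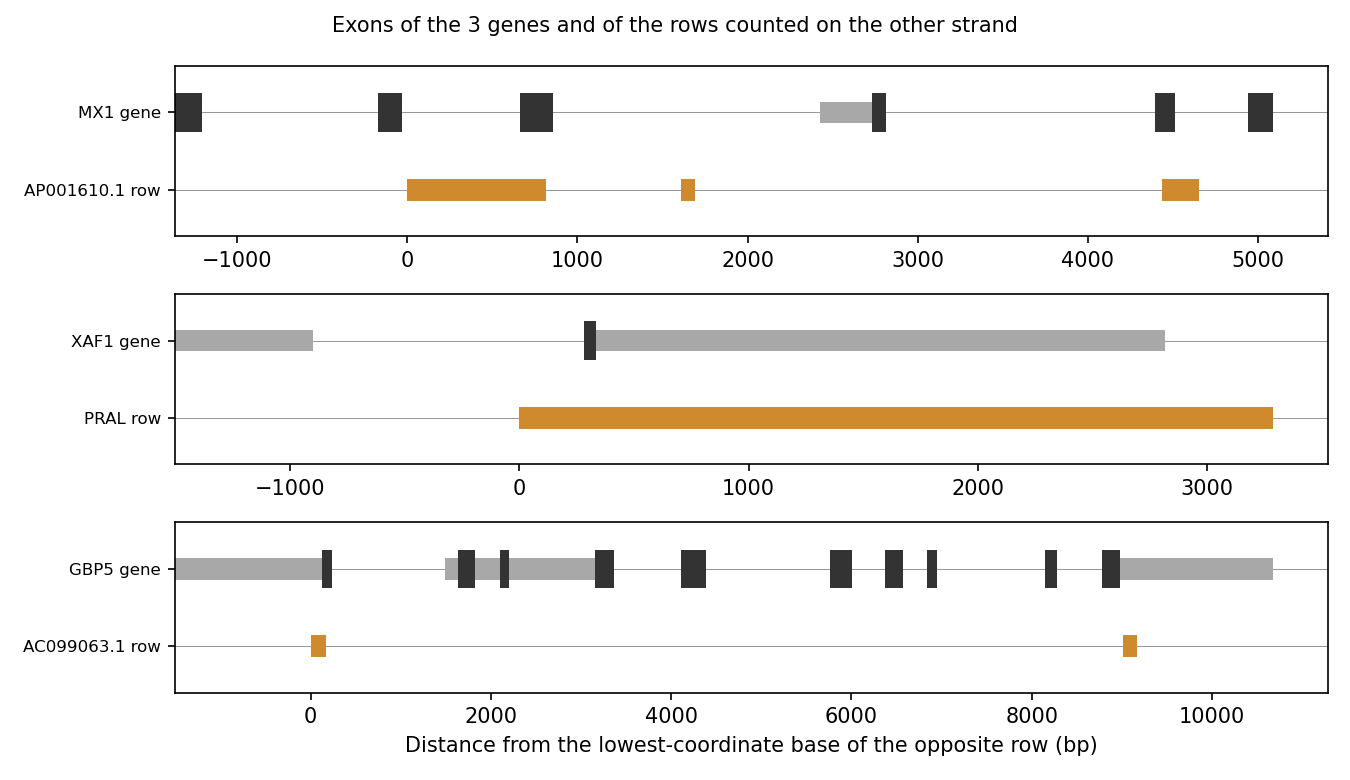
Exons of MX1, XAF1 and GBP5 and of the row counted for each, drawn by distance in bp from the lowest-coordinate base of that row, with coding exon parts as tall dark boxes, other exon parts of the gene in grey and the exons of the row in orange. GBP5 exons cover the whole row, whereas 880 of the 1116 bases of the MX1 row lie outside MX1 exons.

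Promoter sequence was available from RefSeq (GRCh38.p14) for MX1 and XAF1, and none was in the table for GBP5. The core of the interferon-stimulated response element, GAAA followed after any 2 bases by GAAA, on either strand, occurred in 2 of 3 MX1 promoters and in neither of the 2 XAF1 promoters. It occurred in 3.57% of all 35116 promoters of the same length. The palindromic gamma-activated site, TTCNNNGAA, occurred in 1 MX1 promoter, in no XAF1 promoter and in 7.66% of all promoters. A match describes the letters in a window of 300 bases, not a bound site. The first MX1 promoter (chr21:41420308-41420607, plus strand) is shown, with its 1 response element match in capitals, together with that of IRF1 (chr5:132490724-132491023, minus strand), whose 1 gamma-activated site match is in capitals. IRF1 encodes an interferon regulatory factor and is shown because, of the 15 other interferon genes tested in this reading, it rose most in FEBJ against DMSO libraries.
MX1 promoter: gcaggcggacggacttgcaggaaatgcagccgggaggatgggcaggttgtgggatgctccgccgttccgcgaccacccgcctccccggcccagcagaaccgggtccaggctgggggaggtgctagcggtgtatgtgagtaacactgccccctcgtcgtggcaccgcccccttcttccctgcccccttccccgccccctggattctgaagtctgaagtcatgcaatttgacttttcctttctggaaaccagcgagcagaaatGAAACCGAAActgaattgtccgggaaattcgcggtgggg
IRF1 promoter: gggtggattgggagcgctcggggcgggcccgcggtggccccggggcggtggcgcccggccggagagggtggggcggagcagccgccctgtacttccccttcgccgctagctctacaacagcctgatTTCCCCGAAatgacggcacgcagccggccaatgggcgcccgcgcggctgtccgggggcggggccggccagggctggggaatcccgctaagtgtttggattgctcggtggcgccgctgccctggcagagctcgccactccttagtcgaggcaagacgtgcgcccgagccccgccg

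MX1 stood far higher in the FEBJ libraries than in either other group, GBP5 was read almost only in FEBJ libraries, and XAF1 was highest in FEBJ and lowest in Cynaroside libraries. These differences are a description of genes picked for them, so no test is attached. All 3 genes were higher in both FEBJ libraries than in both DMSO libraries. The same order of libraries was found for 43.2% of all genes of the reading, and 35.8% were called higher, where a call is an adjusted p at or under 0.05. All 3 were also higher in both FEBJ libraries than in both Cynaroside libraries, as were 42.6% of all genes, with 35.3% called higher. XAF1 alone of the 3 lay lower in both Cynaroside libraries than in both DMSO libraries, as did 36% of all genes, with 21.6% called lower.

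The MX1 row held 140 and 202 counts in the FEBJ libraries, 11 and 61 in the Cynaroside libraries, and 24 and 47 in the DMSO libraries. Scaled as CPM (counts relative to the TMM library size of the opposite-strand reading), MX1 stood at 138 and 142 in FEBJ, 16.4 and 31.0 in Cynaroside, and 24.4 and 32.8 in DMSO libraries. Both FEBJ libraries lay well above the other 4, and the Cynaroside and DMSO libraries overlapped. Its mean was 140 ± 3.19 CPM in FEBJ, 23.7 ± 10.3 CPM in Cynaroside and 28.6 ± 5.92 CPM in DMSO libraries (SD, n = 2 each). The log2 difference was 2.26 ± 0.29 (SE) for FEBJ against DMSO and 2.42 ± 0.30 for FEBJ against Cynaroside, and the first of these ranked 82 from the top among 1443 genes. Without Cynaroside replicate 2 the difference between FEBJ and Cynaroside was 3.07. For Cynaroside against DMSO it was -0.16 ± 0.34, a sign that turned to 0.12 without Cynaroside replicate 1, to 0.09 without DMSO replicate 2 and to 0.31 with scaling factors of the deposited rows. It was -0.82 without Cynaroside replicate 2.

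The XAF1 row held 165 and 273 counts in the FEBJ libraries, 57 and 171 in the Cynaroside libraries, and 129 and 216 in the DMSO libraries. In CPM, XAF1 stood at 162 and 192 in FEBJ, 85.2 and 87.0 in Cynaroside, and 131 and 151 in DMSO libraries. The 3 groups did not overlap, but the gap between the lower FEBJ and the higher DMSO library was small. The log2 difference was 0.33 ± 0.19 for FEBJ against DMSO, -0.71 ± 0.21 for Cynaroside against DMSO and 1.04 ± 0.20 for FEBJ against Cynaroside. The first is less than 2 standard errors from 0. Scaled by the deposited rows, the same differences were 0.54, -0.25 and 0.79.

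The GBP5 row held 14 and 32 counts in the FEBJ libraries, none in either Cynaroside library, and 0 and 1 in the DMSO libraries. These were 13.8 and 22.5 CPM in FEBJ libraries and 0.697 CPM in the 1 DMSO library with a count. A count of 0 allows up to 3 counts, which is 4.48 and 1.53 CPM in the Cynaroside libraries and 3.05 CPM in DMSO replicate 1. The ratio of FEBJ to DMSO counts, adjusted for depth, was 45.6, with an exact 95% interval of 7.78 to 1839 that covers counting error only. It was 26.8 without DMSO replicate 1, and without DMSO replicate 2, which holds the 1 DMSO count, there is no ratio. Against Cynaroside, GBP5 was at least 16.6-fold higher in FEBJ libraries, taking 3 counts over the Cynaroside group as the floor. That bound was 4.17 without Cynaroside replicate 2. No fold is given for Cynaroside against DMSO, since both groups lie at or under the floor.

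**Figure D2:**
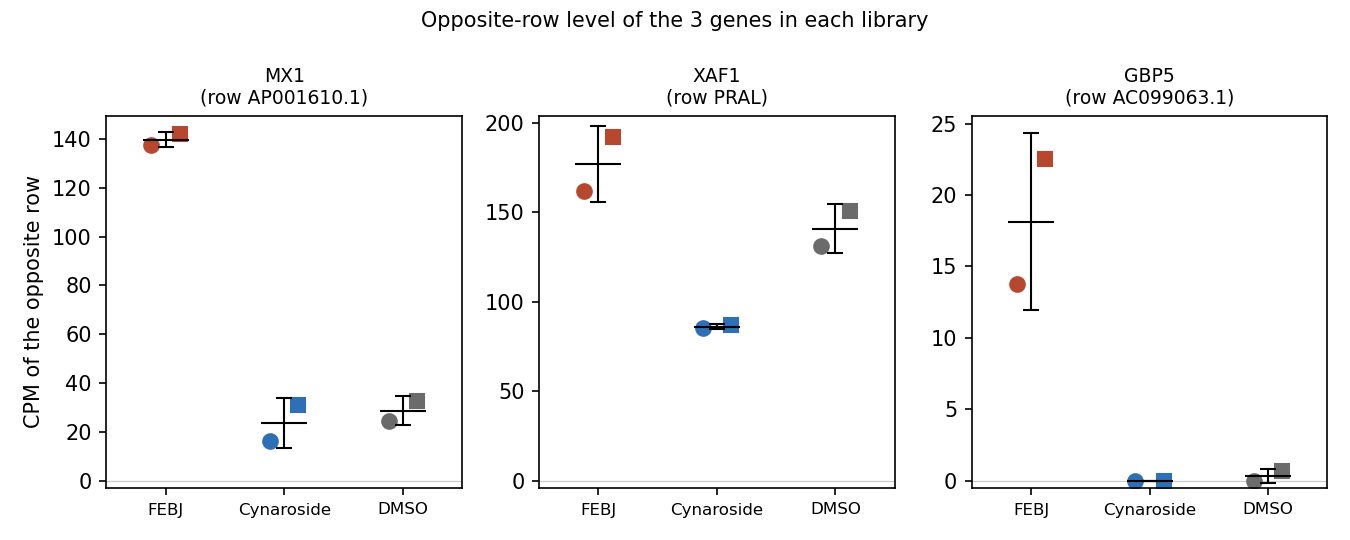
CPM of MX1, XAF1 and GBP5 read from their opposite rows in each library of the FEBJ, Cynaroside and DMSO groups, with circles for replicate 1, squares for replicate 2, and black dashes and bars for the mean and SD. Both FEBJ libraries are the highest points of every panel, and GBP5 has no count in the Cynaroside libraries.

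Per kb of row, the order of the genes was not the same in every group. In FEBJ libraries the mean was 125 CPM per kb for MX1, 56.0 for GBP5 and 53.9 for XAF1. In Cynaroside libraries XAF1 came first at 26.2 CPM per kb, with MX1 at 21.3 and GBP5 at 0. In DMSO libraries XAF1 also came first at 42.9, followed by MX1 at 25.6 and GBP5 at 1.08. The divisor is the whole row, of which 236 of 1116 bases lie opposite MX1 exons and 2535 of 3286 opposite XAF1 exons. The order of the genes depends on that choice of divisor. GBP5 and XAF1 lay within their spread of each other in FEBJ libraries, and so did XAF1 and MX1 in Cynaroside libraries.

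The genes' own rows held almost nothing. The MX1 row itself held 0 and 4 counts in FEBJ, none in Cynaroside, and 2 and 4 in DMSO libraries. XAF1's own row held 2 and 2 counts in FEBJ, none in Cynaroside, and 6 and 0 in DMSO libraries. GBP5's own row held 1 count, in FEBJ replicate 1. These counts are too few for a comparison, and no difference between groups was detectable in the own rows at this depth. The strand setting used in counting is not given in the sources used here, so whether the counts of the opposite rows come from the interferon genes or from the antisense genes cannot be told apart.

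Gene rows held 2507734 and 3524136 counts in FEBJ, 1599000 and 4709317 in Cynaroside, and 2537896 and 3720981 in DMSO libraries, which was 5.48 to 6.12% of all counts. Within pairs, counts differed beyond sampling noise, with a mean chi-square per row of 3.03 to 3.19. The own rows of 6 of 14 stellate cell markers, including COL1A2, DES and LRAT, were at 0 in every library, and the other 8 summed to 177 to 227 counts in FEBJ, 256 to 543 in Cynaroside and 2057 to 3050 in DMSO libraries. All marker lists were read from own rows, so without a known strand setting their counts may not measure the RNA of the markers. In bulk RNA, fewer cells of a type and less RNA per cell cannot be told apart either. Markers of macrophages and dendritic cells summed to 25 to 44 counts in FEBJ, 10 to 17 in Cynaroside and 10 to 11 in DMSO libraries over the 6 of 9 with a count, and CD163, CLEC4F and CLEC4C were at 0. Lymphocyte markers summed to 2 to 8 counts in FEBJ, 0 to 11 in Cynaroside and 39 to 51 in DMSO libraries, with PTPRC, CD3D and MS4A1 among those at 0. The other lists were for hepatocytes, with 34 to 43 counts in FEBJ, 0 to 8 in Cynaroside and 2 in each DMSO library and ALB at 0, and for endothelium, with 426 to 563 counts in FEBJ, 247 to 702 in Cynaroside and 354 to 527 in DMSO libraries and PECAM1 at 0. Epithelial markers summed to 3892 to 5439 counts in FEBJ, 1049 to 2952 in Cynaroside and 4634 to 6787 in DMSO libraries, mostly from KRT8, with EPCAM at 0. The part of these markers in the interferon values was not tested.

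Around the 3 genes, within 200 kb, few rows held 20 or more counts over the 6 libraries. GBP2 and GBP1, guanylate-binding relatives of GBP5 in the same cluster, held 17 and 7, and 7 and 25 counts in FEBJ libraries. In Cynaroside libraries GBP2 held 0 and 6 counts and GBP1 held 2 and 2, and in DMSO libraries GBP2 held 5 and 6 and GBP1 held 16 and 16. In counts, the FEBJ and DMSO libraries overlapped for GBP1 and did not for GBP2. For GBP2 the nearest libraries held 7 counts in FEBJ and 6 in DMSO, too few to settle a difference. Near XAF1, the antisense row ALOX12-AS1 held 58 and 72 counts in FEBJ, 9 and 22 in Cynaroside, and 11 and 20 in DMSO libraries, while the coding neighbour MED31 held 233 and 361 in FEBJ, 181 and 454 in Cynaroside, and 251 and 361 in DMSO libraries. No row other than AP001610.1 held 20 counts near MX1.

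Over the 6 libraries, log2 CPM of MX1 correlated at 0.972 with GBP5 and 0.792 with XAF1, and XAF1 correlated at 0.823 with GBP5. The points share library, depth and the 3 groups, and the genes were chosen together, so these values describe and test nothing. Of 1442 other genes, those most like MX1 were FAM86B1 (0.996), USP54 (0.995), OSGEP (0.993), SP9 (0.992) and ITPR1 (0.992). Those most like XAF1 were TPGS1 (0.988), PHLDA1 (0.980), NFATC2IP (0.979), SYTL3 (0.979) and RNF14 (0.979). Those most like GBP5 were PROK1 (0.999), AAMDC (0.995), ALDH3A1 (0.993), CACNB1 (0.992) and CCNYL1 (0.992). None of these 15 genes is in the interferon lists. Those lists hold only 15 of the 1443 genes tested, with the 3 left out, so finding none says little. Of the 5 named for GBP5, PROK1 and ALDH3A1 also had no count in Cynaroside libraries, and they held 26 and 46 counts over the 6 libraries. GBP5 held at most 1 count in any library outside FEBJ, so its correlations rest partly on values at the floor. PROK1 averaged 9.91 CPM in FEBJ and 0.349 in DMSO libraries, and ALDH3A1 averaged 17.1 CPM in FEBJ and 0.697 in DMSO libraries.

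In FEBJ against DMSO, the few other interferon genes that could be tested were called about as often as all genes. Of 148 listed genes of the pathway, with MX1, XAF1 and GBP5 left out, 15 were tested in the opposite-strand reading. In FEBJ against DMSO, 5 of the 15 rose and 5 fell, by the quasi-likelihood test of edgeR with p adjusted (Benjamini-Hochberg) over all 1443 genes. The called share was 66.7%, beside 70.5% of all genes, of which 35.8% were called higher and 34.7% lower, and the median log2 difference was -0.18, beside 0.05 over all genes. In FEBJ against Cynaroside, 6 rose and 6 fell, a share of 80%, beside 69.5% of all genes, of which 35.3% were called higher and 34.2% lower.

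No interferon ligand could be read. Of 13 ligand rows, 3 had any count, and IFNA1 held 0 and 0 counts in FEBJ, 1 and 7 in Cynaroside, and 9 and 5 in DMSO libraries. IFNB1, a type I interferon, and IFNG, the type II interferon, had no count in any library. Of the receptors and kinases, IFNAR2, a chain of the type I interferon receptor, was at 183 and 158 CPM in FEBJ, 351 and 294 in Cynaroside, and 275 and 298 in DMSO libraries. It fell by 0.76 ± 0.15 on the log2 scale in FEBJ against DMSO (edgeR adjusted p = 1.85e-06), with both FEBJ libraries below the other 4. The row read for IFNAR2 was IL10RB-DT, and 1803 of its 2228 exonic bases lie opposite IFNAR2 exons.

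IRF1 was the one listed transcription factor with an opposite row that was tested, and it rose most of all the 15 genes. It was at 1264 and 1244 CPM in FEBJ, 142 and 169 in Cynaroside, and 229 and 235 in DMSO libraries. Its log2 difference was 2.43 ± 0.11 for FEBJ against DMSO (edgeR adjusted p = 1.98e-99) and 2.97 ± 0.12 for FEBJ against Cynaroside (2.76e-130). In Cynaroside against DMSO it fell by 0.54 ± 0.13 on the log2 scale (0.000187), a call that was lost with scaling by the deposited rows, where the difference was -0.07 (0.672). The row read for IRF1 was C5orf56, and 1716 of its 9728 exonic bases lie opposite IRF1 exons. The own row of IRF1 averaged 19.8 CPM of the deposited rows in FEBJ, 15.9 in Cynaroside and 17.6 in DMSO libraries, and its difference for FEBJ against DMSO did not pass the test (0.714).

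Of the sensors and adaptors, the kinases TBK1 and IKBKE, which activate interferon regulatory factors, moved in opposite directions in FEBJ libraries. TBK1 was at 7.86 and 14.8 CPM in FEBJ, 23.9 and 37.1 in Cynaroside, and 32.5 and 40.4 in DMSO libraries, and it fell by 1.65 ± 0.49 on the log2 scale in FEBJ against DMSO (edgeR adjusted p = 0.00152). IKBKE was at 115.9 and 100.6 CPM in FEBJ, 34.4 and 23.9 in Cynaroside, and 58.0 and 68.3 in DMSO libraries. It rose by 0.76 ± 0.27 in FEBJ against DMSO (0.00700) and fell by 1.20 ± 0.31 in Cynaroside against DMSO (0.000489). The first call was lost without FEBJ replicate 1 (0.0774) and without DMSO replicate 1 (0.0814), and the second without Cynaroside replicate 2 (0.0645). The row read for IKBKE, C1orf147, shares 156 of 2096 bases with it. TRIM25, a ubiquitin ligase of the RIG-I pathway, averaged 442 CPM in FEBJ, 419 in Cynaroside and 505 in DMSO libraries and did not pass the test in FEBJ against DMSO (0.107), although it passed as lower without DMSO replicate 1 (0.0259) and with upper-quartile scaling (0.0342).

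Antiviral effectors, the class to which MX1 belongs, gave no rise in FEBJ against DMSO among the 4 tested, by edgeR, by DESeq2 or at an unadjusted p under 0.05, beside 35.8% of all genes called higher. OAS1, which makes the activator of RNase L, was at 23.6 and 11.96 CPM in FEBJ, 5.98 and 4.07 in Cynaroside, and 13.2 and 6.28 in DMSO libraries. The FEBJ and DMSO libraries overlapped and the difference of 0.88 ± 0.74 did not pass the test (edgeR adjusted p = 0.283). The row read for OAS1, AC004551.1, shares 92 of 575 bases with it. OAS1 passed as higher in FEBJ against Cynaroside (1.87 ± 0.82, 0.0338), a call that was lost whichever of the 6 libraries was left out (0.0539 to 0.350), with a replicate block (0.0712) and with DESeq2 (0.0675). EIF2AK2, the double-stranded RNA kinase PKR, averaged 61.6 CPM in FEBJ, 97.6 in Cynaroside and 112 in DMSO libraries. It fell by 0.84 ± 0.24 on the log2 scale in FEBJ against DMSO (0.000939), which did not hold without DMSO replicate 1 (0.0892), and its row is annotated as a processed pseudogene. For FEBJ against DMSO, SHFL had a log2 difference of 0.13 ± 0.21 (0.592) and SP110 one of -0.32 ± 0.26 (0.265).

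RNF213, the 1 gene tested of the list that holds the guanylate-binding proteins, was lower in FEBJ against DMSO libraries. Of the 3 dynamin family GTPases tested, 2 were lower and 1 was not called, beside 34.7% of all genes called lower. So few genes say nothing about a family as a whole. RNF213, a large interferon-inducible ATPase and ubiquitin ligase, was at 127 and 141 CPM in FEBJ, 747 and 705 in Cynaroside, and 571 and 658 in DMSO libraries. It fell by 2.20 ± 0.13 on the log2 scale in FEBJ against DMSO (edgeR adjusted p = 3.96e-63). Only 559 of the 3983 exonic bases of the row read for it, AC124319.2, lie opposite RNF213 exons. The own row of RNF213 went the other way and rose by 0.77 in the same comparison (0.000529). Its means were 100 CPM of the deposited rows in FEBJ, 119 in Cynaroside and 58.5 in DMSO libraries. GBP4 had an opposite row with 0 and 0 counts in FEBJ, 0 and 4 in Cynaroside, and 0 and 3 in DMSO libraries, too few to test. Of the dynamin family, to which MX1 is related in fold, OPA1 fell by 1.64 ± 0.21 (8.20e-14) and ATL3 fell by 1.378 ± 0.16 (2.83e-16) in FEBJ against DMSO. DNM1L, the mitochondrial fission dynamin, had a difference of -0.06 ± 0.13 (0.709). In Cynaroside against DMSO, OPA1 fell by 0.64 ± 0.20 (0.00460), a call that was lost without Cynaroside replicate 1 (0.101), without DMSO replicate 1 (0.0728) and with scaling by the deposited rows (0.494).

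Of the class I antigen presentation genes, HLA-B and HLA-F rose in FEBJ libraries. HLA-B averaged 3290 ± 140 CPM in FEBJ, 2005 ± 84.4 in Cynaroside and 2038 ± 31.2 in DMSO libraries, and rose by 0.69 ± 0.05 on the log2 scale in FEBJ against DMSO (edgeR adjusted p = 4.17e-40). HLA-F averaged 771 ± 43.1 CPM in FEBJ, 289 ± 46.3 in Cynaroside and 279 ± 36.3 in DMSO libraries (SD, n = 2 each), and rose by 1.48 ± 0.12 (1.24e-33). The rows read for these genes are annotated as unprocessed pseudogenes, and class I genes resemble each other closely, so the split of reads among them is uncertain. Their own rows were lower in level, and the own row of HLA-B fell by 1.13 in the same comparison (0.0128) while that of HLA-F rose by 1.29 (3.85e-06). WARS1, a tryptophan tRNA ligase induced by interferon-gamma, had a difference of -0.18 ± 0.12 (0.164), which passed as lower with upper-quartile scaling (0.0493).

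PTPN1, a phosphatase that acts on Janus kinases, averaged 367 CPM in FEBJ, 494 in Cynaroside and 437 in DMSO libraries. It passed the test as lower in FEBJ against DMSO (-0.26 ± 0.12, edgeR adjusted p = 0.0464), a call that did not hold without FEBJ replicate 2 (0.478), DMSO replicate 1 (0.0746) or DMSO replicate 2 (0.150), with DESeq2 (0.107), or with scaling by the deposited rows (0.770). Only 138 of the 4587 exonic bases of its row lie opposite PTPN1.

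**Figure D3:**
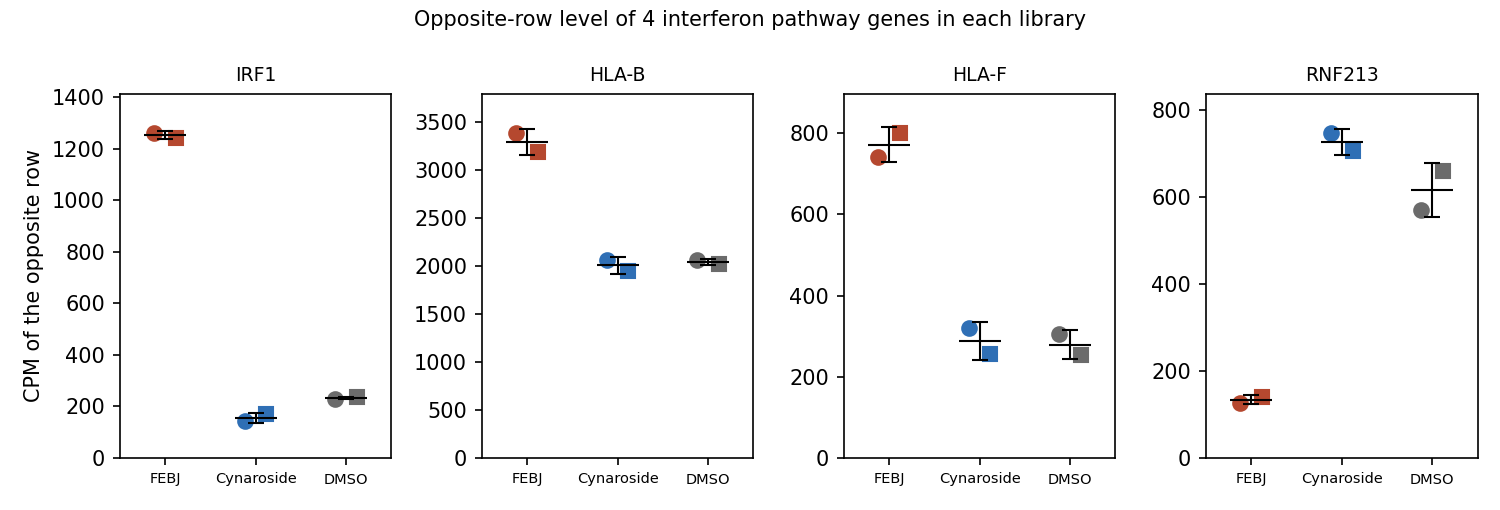
CPM of IRF1, HLA-B, HLA-F and RNF213 read from their opposite rows in each library of the FEBJ, Cynaroside and DMSO groups, with circles for replicate 1, squares for replicate 2, and dashes and bars for the mean and SD. IRF1, HLA-B and HLA-F are highest in both FEBJ libraries, while RNF213 is lowest there.

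In Cynaroside against DMSO, IRF1 and IKBKE were the interferon genes of the reading that passed the test. Of the 15 tested, none rose and these 2 fell, a called share of 13.3%, beside 41.7% of all genes, of which 20.2% were called higher and 21.6% lower. The median log2 difference was -0.03, beside -0.01 over all genes. The count of 0 is by edgeR, with 2 at an unadjusted p under 0.05 and 0 by DESeq2, and it was 1 without Cynaroside replicate 2 or DMSO replicate 2. With scaling by the deposited rows, 9 of the 15 were called higher, HLA-B and HLA-F among them, and 1 lower. That scaling moves the median of all genes to 0.45 on the log2 scale, and 88.1% of all calls are then higher, against 48.3% before, so no direction for the group holds under both scalings.

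**Figure D4:**
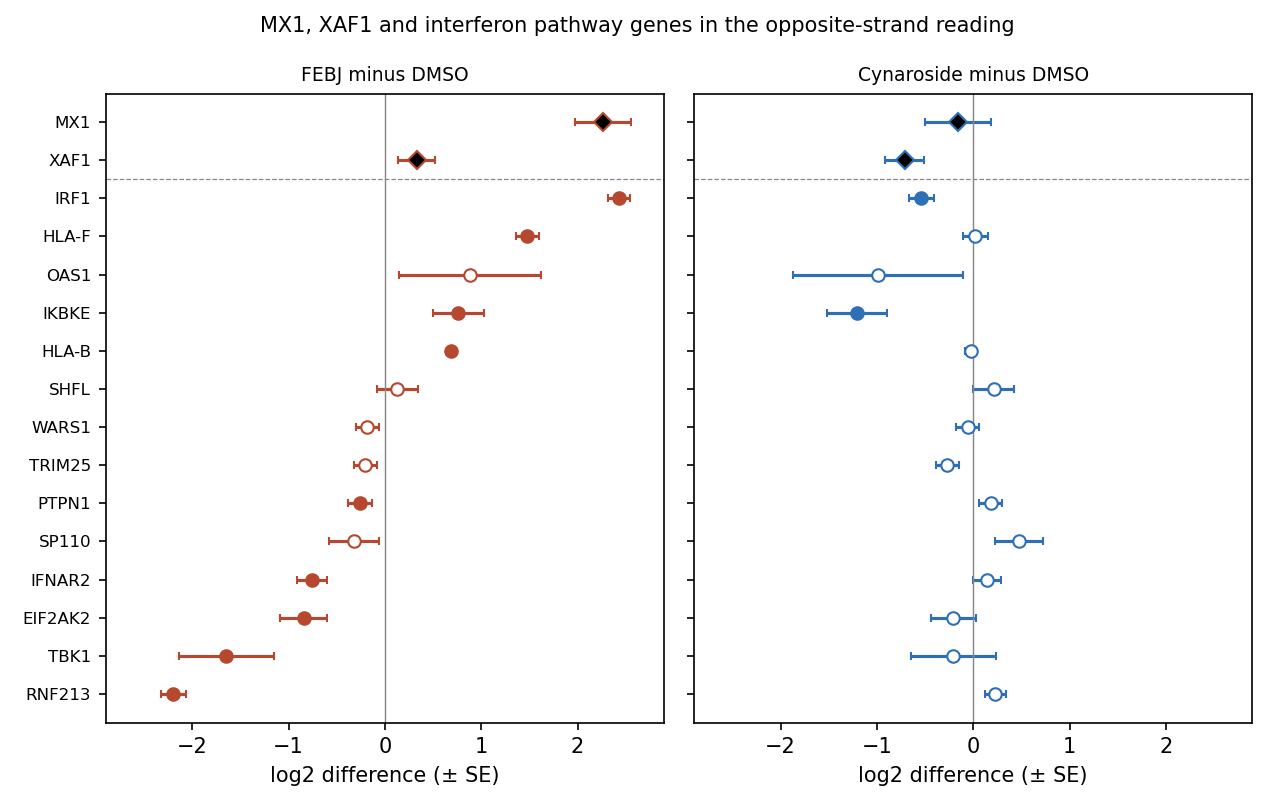
Log2 differences of interferon pathway genes and of MX1 and XAF1 in the opposite-strand reading for FEBJ against DMSO and for Cynaroside against DMSO, with standard errors. Filled circles passed the test, open circles did not, and black diamonds mark MX1 and XAF1, which were not tested; IRF1 and RNF213 are at the 2 ends for FEBJ.

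In the deposited rows, where each gene's counts are those of its own row, 63 of the 148 pathway genes were tested among 12012 rows. Without a known strand setting, counts in an own row may not come from that gene's RNA, even where no exon lies opposite. The rises and falls given here and below thus describe rows, and which RNA they measure was not tested. In FEBJ against DMSO, 10 rose and 24 fell, a called share of 54.0%, beside 50.8% of all rows, of which 26% were called higher and 24.8% lower. Their median log2 difference was -0.49, beside -0.06 over all rows. The 24 became 14 without FEBJ replicate 1 or DMSO replicate 1, and 12 without DMSO replicate 2. Of the 31 rows with an exon on the other strand, 7 rose and 9 fell, with a median of -0.10. Of the 32 with none, 3 rose and 15 fell, with a median of -1.61. The same split was not made over all 12012 rows, so whether it is particular to pathway genes was not tested. In Cynaroside against DMSO, 13 rose and 20 fell, a share of 52.4%, beside 45.4% of all rows, of which 24.3% were called higher and 21.1% lower, with a median of -1.03 beside 0.02. Those counts were 7 and 13 without DMSO replicate 1, the 20 became 12 without DMSO replicate 2, and the 13 became 6 with scaling by the opposite-strand reading. In FEBJ against Cynaroside, 12 rose and 11 fell, a share of 36.5%, beside 41.9% of all rows, of which 21.5% were called higher and 20.4% lower.

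Of the 5 receptors and kinases tested in their own rows, 1 rose and 3 fell in FEBJ against DMSO (80%, beside 50.8% of all rows), and 1 rose and 2 fell in Cynaroside against DMSO (60%, beside 45.4%). JAK1 fell with both treatments. JAK1, a kinase shared by the interferon receptors, held 14 and 29 counts in FEBJ, 6 and 18 in Cynaroside, and 82 and 147 in DMSO libraries. It fell by 2.21 ± 0.42 on the log2 scale in FEBJ against DMSO (edgeR adjusted p = 6.93e-05) and fell by 2.87 ± 0.46 in Cynaroside against DMSO (1.01e-05). IFNGR2, a chain of the interferon-gamma receptor named here after its values were seen, held 171 and 256 counts in FEBJ, 82 and 226 in Cynaroside, and 69 and 150 in DMSO libraries. It rose by 1.19 ± 0.22 in FEBJ (4.87e-05) and by 0.88 ± 0.23 in Cynaroside libraries (0.00257) against DMSO. The second call was lost without DMSO replicate 1 (0.0988) and with scaling by the opposite-strand reading (0.139), and the row lies opposite TMEM50B over 380 bp.

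Among sensors and effectors in own rows, TRIM14, an adaptor of antiviral signalling, rose by 1.84 ± 0.08 in FEBJ against DMSO, with 1204 CPM in FEBJ, 401 in Cynaroside and 336 in DMSO libraries (edgeR adjusted p = 8.55e-18). Its row lies opposite NANS over 422 bp, and without a known strand setting reads of the pair cannot be told apart. MAVS, the mitochondrial adaptor of RNA sensors, fell by 2.42 ± 0.51 in FEBJ libraries (0.000252), with 3.12 CPM in FEBJ, 17.3 in Cynaroside and 17.5 in DMSO libraries. LGALS3BP, a secreted glycoprotein, held 1 and 2 counts in FEBJ, 4 and 29 in Cynaroside, and 41 and 85 in DMSO libraries, a ratio of FEBJ to DMSO of 0.0274 (exact 95% interval 0.00557 to 0.0818). In Cynaroside libraries ADAR, the RNA-editing enzyme, fell by 2.65 ± 0.51 (0.000119). IFI16, a DNA sensor, had no count in Cynaroside libraries and 31 and 40 in DMSO libraries, which is at least 18.5-fold lower against a floor of 3 counts over the group.

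B2M, the light chain of class I molecules, has no exon on the other strand. It held 5 and 14 counts in FEBJ, 10 and 13 in Cynaroside, and 113 and 185 in DMSO libraries, and fell by 3.76 ± 0.46 in FEBJ (edgeR adjusted p = 6.43e-08) and fell by 3.22 ± 0.45 in Cynaroside libraries (1.57e-06) against DMSO. The own row of HLA-F rose in both, by 1.29 ± 0.20 in FEBJ (3.85e-06) and 1.52 ± 0.20 in Cynaroside libraries (5.56e-07). CIITA, the activator of class II genes, fell by 0.46 ± 0.09 in FEBJ (0.000173) and rose by 0.57 ± 0.09 in Cynaroside libraries (1.28e-05), the second of which was lost with scaling by the opposite-strand reading (0.11, 0.276). Its row lies opposite DEXI over 2416 bp.

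Of the inhibitors, RNF213 and the GTPases, PTPN11, a phosphatase, fell by 1.46 ± 0.33 in FEBJ (edgeR adjusted p = 0.000495) and by 2.11 ± 0.36 in Cynaroside libraries (2.52e-05). PIAS1, a feedback inhibitor of interferon signalling, rose by 0.89 ± 0.16 in Cynaroside libraries (4.44e-05). The own row of RNF213 rose by 1.05 ± 0.17 in Cynaroside libraries (1.72e-05). DNM2, the ubiquitous dynamin, rose by 0.62 ± 0.10 in FEBJ (1.02e-05) and fell by 0.96 ± 0.11 in Cynaroside libraries (7.26e-08). The rows of PTPN11, PIAS1, RNF213 and DNM2 all lie opposite exons of another gene. GBP3, named here after its values were seen, held 0 and 1 counts in FEBJ, 1 and 3 in Cynaroside, and 24 and 21 in DMSO libraries. Its ratio of FEBJ to DMSO was 0.0255 (exact 95% interval 0.000633 to 0.150). GBP5 was read from its opposite row, and its own row held 1 count, so the directions of GBP3 and GBP5 cannot be compared. The call of GBP3 for FEBJ against DMSO (edgeR adjusted p = 0.00279) was lost without DMSO replicate 1. The own row of GBP1 did not pass in that comparison (0.08, edgeR adjusted p = 0.942).

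In the lists tied to the partners of XAF1 and GBP5, HTRA2, a mitochondrial protease that inactivates XIAP, rose by 0.95 ± 0.11 in FEBJ against DMSO (edgeR adjusted p = 5.27e-08), from a row that lies opposite LOXL3 over 625 bp. It was the 1 of 5 tested genes of its list that rose, and 2 fell, a share of 60%, beside 50.8% of all rows. Those that fell were the apoptosis inhibitors BIRC2 and BIRC5, named here after their values were seen. BIRC2 held 0 and 6 counts in FEBJ, 0 and 0 in Cynaroside, and 42 and 33 in DMSO libraries, and its call (0.00357) was lost without DMSO replicate 1 (0.114) and with DESeq2 (0.181). BIRC5 held 10 and 4 counts in FEBJ, 0 and 16 in Cynaroside, and 39 and 34 in DMSO libraries, and its call (0.0337) was lost without FEBJ replicate 2 (0.180) or DMSO replicate 1 (0.223). Of 4 inflammasome genes tested, 3 rose in FEBJ against DMSO, and 2 rose and 1 fell in Cynaroside against DMSO, shares of 75% beside 50.8% and 45.4% of all rows. PYCARD, the adaptor of inflammasomes, rose by 4.60 ± 0.39 in FEBJ libraries (5.65e-11), with 156 and 257 counts in FEBJ, 6 and 35 in Cynaroside, and 9 and 10 in DMSO libraries. Its row lies opposite PYCARD-AS1 over 991 bp. NLRC4, an inflammasome receptor, rose by 2.76 ± 0.50 in Cynaroside libraries (5.07e-05), with 46 and 116 counts in FEBJ, 45 and 79 in Cynaroside, and 4 and 22 in DMSO libraries.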

How the data were processed

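Raw counts per gene were deposited for 6 libraries, and per the submitters' processing notes they were made with CASAVA 1.7, HISAT2 (no version), HTSeq 0.12.4, DESeq2 1.38.0 and the hg19 build. The strand setting, library kit and annotation release are not given in the sources used here. Each table held 62754 gene rows and 5 summary rows; the summary row for reads outside features held 87.4 to 88.3% of counts, and summary rows were left out. Overlaps between strands came from GENCODE 29 on GRCh38, in which 58261 rows were found; the builds were not reconciled, and all positions are GRCh38.

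The opposite-strand reading summed 1828 non-coding rows into 1699 genes, with 36.9 to 42.9% of what the gene rows held. A row had to overlap exons of 1 gene only, protein-coding, by 50 bp or more, and to hold at least as many counts as that gene's row. Both readings were filtered with filterByExpr, scaled by TMM and fitted in edgeR 4.0.16 (R 4.3.3) with 3 group means over all 6 libraries. Calls are quasi-likelihood tests with Benjamini-Hochberg adjustment at 0.05 over all 1443 genes or all 12012 deposited rows. These tests share the spread across genes, separately in each reading. Very small p-values thus rest on more than a gene's own libraries and cannot be compared between the readings. CPM were computed here from TMM library sizes, separately for each reading. Intervals and floors of 3 counts cover counting error only. The scripts were tested on simulated data.

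The 3 genes, the lists and the alternatives were chosen with earlier results of these data known. Genes named were the 3 genes and their rows, every listed gene tested in the opposite-strand reading, up to 6 rising and 6 falling listed rows with the smallest p among deposited rows in FEBJ against DMSO and in Cynaroside against DMSO, and the 5 genes most like each of the 3 by Pearson's r. Some genes that this rule names are not reported here. All 148 pathway, 30 related and 56 marker symbols matched a row. Alternatives were other scalings, filters, a prior count of 2, a replicate block, a fit of 4 libraries, each library left out in turn, DESeq2 1.42.0 and other overlap rules.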

Additional observations from a re-analysis of the deposited data

How the results depend on the processing

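Of the values for MX1, XAF1 and GBP5 and the counts of pathway genes, 302 of the recomputed values kept their direction and stayed within a set range (the replicate spread for MX1 and XAF1, the counting interval for GBP5, 1.5 times for counts of genes), 32 moved and 3 reversed. All 3 reversals were MX1 in Cynaroside against DMSO (-0.16), at 0.12 without Cynaroside replicate 1, 0.09 without DMSO replicate 2 and 0.31 with scaling by the deposited rows. For single genes, 1468 kept their side of the threshold, 27 passed it, 45 no longer did and 3 reversed. The 3 were HLA-B (0.43), ATL3 (0.42) and WARS1 (0.41) in Cynaroside against DMSO with scaling by the deposited rows. The causes were not tested.

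Leaving out 1 library gave MX1 log2 differences of 2.08 to 2.503 for FEBJ against DMSO, -0.82 to 0.12 for Cynaroside against DMSO and 2.12 to 3.07 for FEBJ against Cynaroside. For XAF1 the ranges were 0.20 to 0.43, -0.81 to -0.61 and 0.91 to 1.14. The GBP5 ratio for FEBJ against DMSO ranged over 26.8 to 53.9, with no value without DMSO replicate 2, and the bound against Cynaroside over 4.17 to 19.6. Pathway genes read from opposite rows numbered 0 to 1 higher and 1 to 3 lower in Cynaroside against DMSO. In deposited rows they numbered 12 to 28 lower in FEBJ against DMSO, and 7 to 14 higher and 12 to 23 lower in Cynaroside against DMSO.

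Scaling by the deposited rows moved MX1 to 2.48 for FEBJ against DMSO and XAF1 to 0.54 for FEBJ against DMSO, -0.25 for Cynaroside against DMSO and 0.79 for FEBJ against Cynaroside. It gave 9 pathway genes higher and 1 lower in Cynaroside against DMSO, against 0 and 2. The median of all genes moved to 0.27 in FEBJ against DMSO, 0.45 in Cynaroside against DMSO and -0.21 in FEBJ against Cynaroside. For Cynaroside against DMSO, the share of calls that were higher became 88.1%, against 48.3%. In deposited rows with scaling by the opposite-strand reading it became 27.3%, and with upper-quartile scaling 42.8%, against 53.5%, and in FEBJ against Cynaroside 62.1%, against 51.2%; the medians became -0.28, -0.44 and 0.37, and 6 pathway genes were higher in Cynaroside against DMSO, against 13.

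With protein-coding opposite rows as well, XAF1 moved to 0.91 for FEBJ against Cynaroside, 9 pathway genes fell in FEBJ against DMSO, and in Cynaroside against DMSO 2 rose and 4 fell. In that last comparison 2 rose with only the 4 libraries compared, 1 rose with 1 bp of overlap, and 1 rose and 1 fell with 200 bp.

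The labels give no shared batch behind replicate numbers, and differences between replicates correlated at -0.01, 0.06 and -0.12 across pairs of groups in the opposite-strand reading. With a replicate block, calls numbered 1011, against 1017, in FEBJ against DMSO, 586, against 602, in Cynaroside against DMSO and 1000, against 1003, in FEBJ against Cynaroside; deposited rows gave 5762, against 6107, 5110, against 5454, and 4801, against 5034. The MX1 difference for FEBJ against DMSO was 2.29 with the block, and of the genes named the block changed the calls of OAS1 in FEBJ against Cynaroside (0.0712) and GBP3 in Cynaroside against DMSO (0.0817). For Cynaroside against DMSO on 4 libraries, calls numbered 618 with no block, 505 with the block and 581 with the replicate numbers of DMSO crossed, an alternative chosen after seeing the data.

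A count of 0 for GBP5 allows up to 4.48 and 1.53 CPM in the Cynaroside libraries, and 2 libraries a group limit every comparison.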
